A study of Mus musculus with 17 samples.

Results

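The mouse genes named Zfp followed by a number encode zinc finger proteins, most of them of the C2H2 type. Of 366 such genes in the deposited expression table (Zfp36, an RNA-decay protein with another kind of finger, was left out), 262 reached a TPM of 1 in at least 5 of the 17 libraries, and these 262 are described here. TPM is the share of transcripts that a gene takes in a library, corrected for its length. The other 104 stayed under that level. The table held 21683 genes, of which 10451 met the same level rule and were tested. The genes were thus chosen by their TPM in all groups: 56 of the 262 would not have passed without the untreated libraries, and 2 would not have passed without the Tat-treated control-genotype libraries, so the number that passed supports no direction of change. The 5th highest TPM was 1.00 for Zfp457, 1.02 for Zfp229 and 1.03 for Zfp712, the genes just inside the rule, and 0.987 for Zfp763, 0.992 for Zfp101 and 0.992 for Zfp773, the genes just outside it.

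A C2H2 finger is a short fold held by a zinc ion, and arrays of such fingers read DNA, or in some proteins RNA. Many of these genes also encode a KRAB domain, which recruits TRIM28 (KAP1) and the histone methyltransferase SETDB1 and so silences chromatin, above all at transposable elements and integrated retroviruses. KRAB genes often stand in tandem arrays that arose by duplication, and arrays differ between mammals. Others of the family have roles far from silencing, in splicing, ribosome assembly, the mitotic spindle and transcription.

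The cells were thioglycollate-elicited peritoneal macrophages of 8-week-old C57BL/6 mice. F/F PBS (n = 6) were IKKβ F/F macrophages given vehicle, F/F Tat (n = 6) were IKKβ F/F macrophages given 100 nM of the HIV protein Tat for 12 h, and ΔMye Tat (n = 5) were macrophages given the same Tat treatment from mice that also carried a LysM-Cre knock-in, which deletes the floxed IKKβ gene in myeloid cells and disrupts the lysozyme gene on the Cre allele. IKKβ is the kinase that activates canonical NF-κB. A ΔMye group without Tat was not analysed here, so the Tat response could not be set against genotype. Nothing in the labels says whether libraries came from separate mice, but the paper's heatmap legend calls each column a mouse replicate. The p-values measure the spread between these libraries.

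Read depth is unknown, because TPM keeps none. The 10 macrophage markers summed to 8440 to 27088 TPM per library, and those of T cells, B cells, NK cells, eosinophils and mesothelium to 0.401 to 25.7 TPM per list. The T cell list summed to 3.20 to 7.85 TPM in F/F PBS, 1.82 to 2.95 in F/F Tat and 6.78 to 9.17 in ΔMye Tat, with 5 of its 6 genes in the table. The targeted gene Ikbkb was at 26.8 ± 1.99 TPM (SD, n = 6) in F/F PBS, 23.2 ± 1.44 (n = 6) in F/F Tat and 16.4 ± 2.59 (n = 5) in ΔMye Tat. Its 5 ΔMye Tat libraries, at 12.8 to 19.9 TPM, lay under every F/F library, although the transcript was not absent. Bulk RNA cannot tell fewer cells of a type from less RNA per cell.

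Numbered Zfp genes were weakly expressed. Their mean level over all libraries, which TPM makes comparable between genes by length, had a median of 3.20 TPM and ran from 0.583 to 60.2. It was under 1 TPM for 33 genes, 1 to 5 for 141, 5 to 10 for 52, 10 to 20 for 24 and at least 20 for 12. The highest levels belonged to Zfp706, a small protein with 1 finger that is linked to translational control, Zfp207 (BuGZ), which loads BUB3 onto the spindle, and Zfp991, a KRAB gene of chromosome 4. A KRAB pattern was found by a sequence search in the proteins of 143 genes and not in 117, and 2 genes had no protein to search. The same search marked 348 of 22500 protein-coding genes, 305 of them with a C2H2 finger, and none of 35 Zbtb, 17 Klf and 24 Zdhhc genes. KRAB genes that the search missed were not counted, so the class with no KRAB pattern may hold some. The median number of fingers was 11 in the KRAB class and 7 in the other.

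Summed over the 262 genes, F/F PBS libraries held 1670 to 1890 TPM with a median of 1713, F/F Tat libraries held 1110 to 1247 with a median of 1175, and ΔMye Tat libraries held 1273, 1357, 1406, 1415 and 1483. The 3 groups did not overlap. They were ordered F/F PBS, ΔMye Tat, F/F Tat. The number of these genes at 1 TPM or more ran from 250 to 259 in F/F PBS, 180 to 198 in F/F Tat and 204 to 219 in ΔMye Tat. In all 17 libraries 161 of the genes were at or above 1 TPM, and 23 were so only in F/F PBS libraries. Zfp558 and Zfp811 were at or above 1 TPM in Tat libraries and in no F/F PBS library. The rows at 1 TPM or more in the whole table moved in the same order, from 10228 to 10378 in F/F PBS, 9260 to 9405 in F/F Tat and 9449 to 9698 in ΔMye Tat. Those rows were not chosen by level. The 262 genes were, at the same 1 TPM, and 56 of them needed the F/F PBS libraries to pass. Part of the order of their counts can thus come from the rule.

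**Figure D1:**
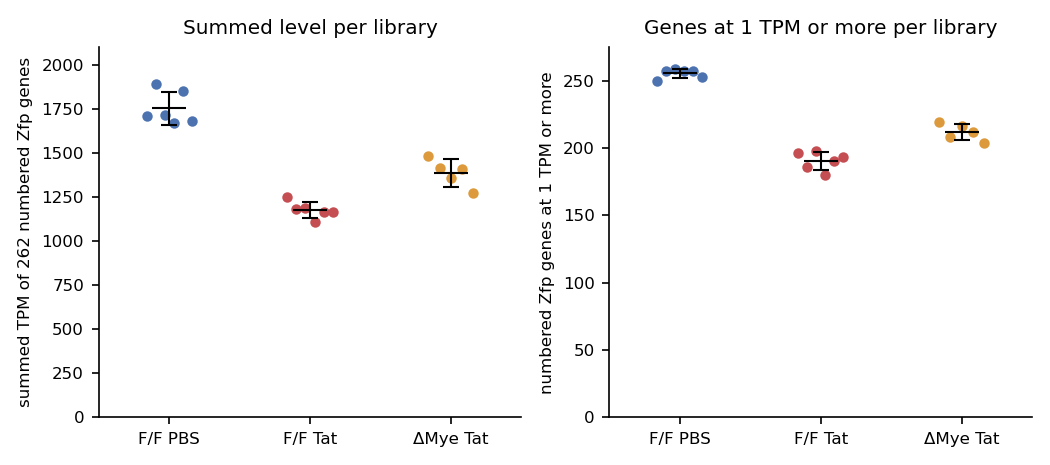
The left panel plots the summed TPM of the 262 numbered Zfp genes in each library and the right panel how many of them were at 1 TPM or more, by group, with each point 1 library and the bar and whiskers the mean ± SD. F/F PBS lies highest on both axes and F/F Tat lowest, and no library of one group falls within the range of another. The 1 TPM of the right panel is also the level of the rule that chose the genes.

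This comparison asks what Tat does to macrophages with intact IKKβ. Most numbered Zfp genes had less transcript after Tat, and so did most genes of the table. With a threshold of 0.01 on the adjusted p and of 3 on the fold (limma on log2(TPM + 0.1), Benjamini-Hochberg over 10451 genes), 41 of 262 were called lower, or 15.6%, against 19.4% of all genes tested. Called higher was 1 gene, Zfp811, or 0.382% against 5.21%. At the adjusted p alone 196 were lower and 9 higher, 74.8% and 3.44%, against 67.6% and 17% of all genes tested. The libraries of the groups did not overlap for 168 genes in the lower direction and 6 in the higher direction, 64.1% and 2.29%, against 62.4% and 15.3%. The share lower was thus near the background, and the share higher was below it. Some genes called lower, such as Zfp72 and Zfp41, met the level rule only through F/F PBS, where they were high. How many of the 41 did so was not counted, so the count alone supports no direction of change. All genes tested met the same rule.

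TPM is a share of a fixed total, and the median log2 difference over all tested genes was -0.65. That of the numbered Zfp genes was -0.78, with quartiles at -1.29 and -0.38 and a range from -3.82 to 2.59. After the libraries were scaled by the median ratio of their genes, 16 were called lower and 6 higher, against 9.73% and 8.51% of all genes, and at the adjusted p alone 92 were lower and 51 higher, against 38% and 37.3% of all genes. The 6 called higher were Zfp281, Zfp382, Zfp658, Zfp719, Zfp800 and Zfp811. Differences below are given as fitted to the deposited TPM, and where the scaling turned the direction of a gene or list described, its scaled value is given too.

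**Figure D2:**
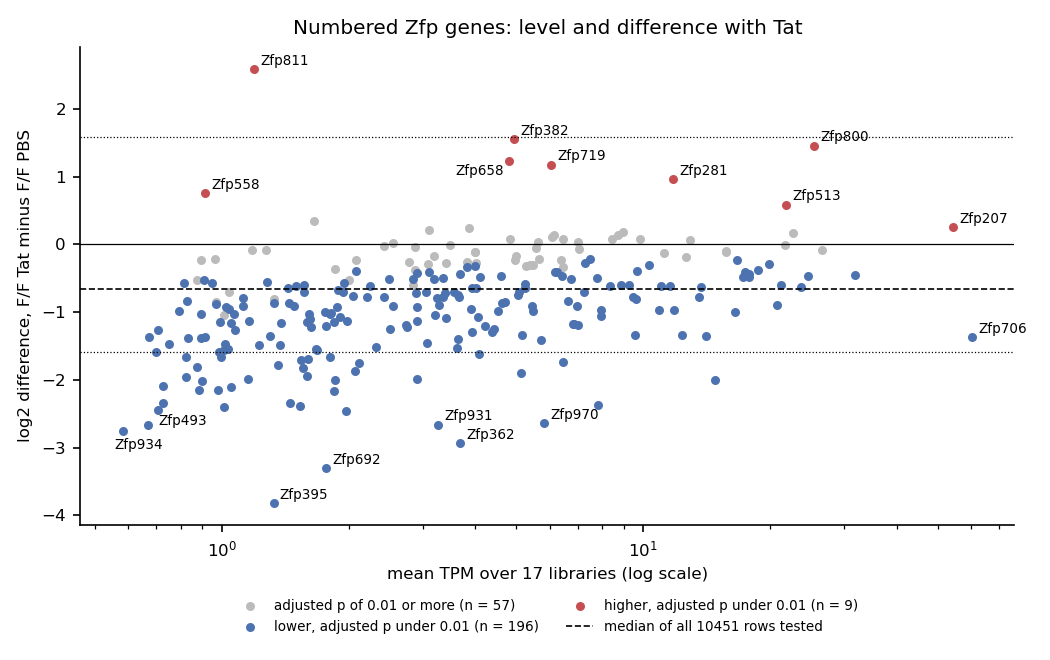
Each point is 1 of the 262 numbered Zfp genes, with its mean TPM over 17 libraries on a log axis and its log2 difference of F/F Tat minus F/F PBS, the dashed line the median of all tested genes at -0.65 and the dotted lines a fold of 3. The 9 genes higher at the adjusted p alone stand above a broad field of lower genes, and the most negative points belong to genes with means under 10 TPM.

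Of the 9 genes that rose at the adjusted p, 5 had a KRAB pattern and 4 did not. Zfp811, a KRAB gene on chromosome 17, was at 0.0582 to 0.412 TPM in F/F PBS with a median of 0.170 and at 1.38 to 1.76 in F/F Tat with a median of 1.51, and its 5 ΔMye Tat libraries were at 1.94, 2.11, 2.32, 2.20 and 1.33. It was under 1 TPM in every PBS library and above it in every Tat library of either genotype. It therefore met the level rule only through Tat libraries, where it was high, so its call is not independent of that rule. Its log2 difference was 2.59 ± 0.23 (SE, adjusted p = 2.72e-09). That value leans on the added 0.1 TPM, and with 1 TPM added it was 1.10.

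Zfp800, a 6-finger protein without a KRAB pattern, was at 11.5 to 15.6 TPM in F/F PBS (median 12.6) and 30.1 to 39.7 in F/F Tat (median 35.4). Its ΔMye Tat libraries were at 29.2, 30.8, 28.8, 25.8 and 24.4. The Tat libraries all lay above the PBS libraries, and the difference was 1.46 ± 0.08 (adjusted p = 9.02e-13). It rose most of the numbered Zfp genes that averaged 5 TPM or more.

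Zfp281, which works with NANOG and other factors of pluripotent cells, was at 6.44 to 9.90 TPM in F/F PBS (median 7.17), 13.2 to 15.8 in F/F Tat (median 15.3) and 15.0, 13.8, 14.0, 12.4 and 11.1 in ΔMye Tat. It rose by 0.97 ± 0.10 (adjusted p = 2.12e-08), with no overlap between PBS and Tat. Zfp207 was at 42.6 to 55.0 TPM in F/F PBS and 54.2 to 60.7 in F/F Tat, a rise of 0.25 ± 0.05 (adjusted p = 1.06e-04) with overlapping ranges.

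Zfp658 and Zfp719, KRAB genes of a 5-gene array on chromosome 7, rose together. Zfp658 went from 2.02 to 2.59 TPM in F/F PBS to 4.83 to 6.76 in F/F Tat (1.24 ± 0.10, adjusted p = 3.66e-10), and Zfp719 from 2.52 to 4.03 TPM to 5.40 to 9.52 (1.18 ± 0.15, adjusted p = 3.84e-07). Neither pair of ranges overlapped. In the same array 2 of the other genes were called lower, so neighbours there moved in opposite directions. Zfp513, whose human counterpart is linked to retinal degeneration, rose from 15.4 to 18.4 TPM to 24.5 to 26.6 (0.59 ± 0.06, adjusted p = 5.46e-09). The remaining risers, named here because so few genes rose, were Zfp382 (1.56 ± 0.31, adjusted p = 9.80e-05) and Zfp558 (0.75 ± 0.25, adjusted p = 0.0077), and the PBS and Tat ranges of both overlapped. Zfp558, like Zfp811, met the level rule only through Tat libraries. Zfp558 no longer passed when any of 8 single libraries was left out (F/F PBS replicates 2, 3 and 6, F/F Tat replicates 7 to 11), with adjusted p from 0.011 to 0.023.

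**Figure D3:**
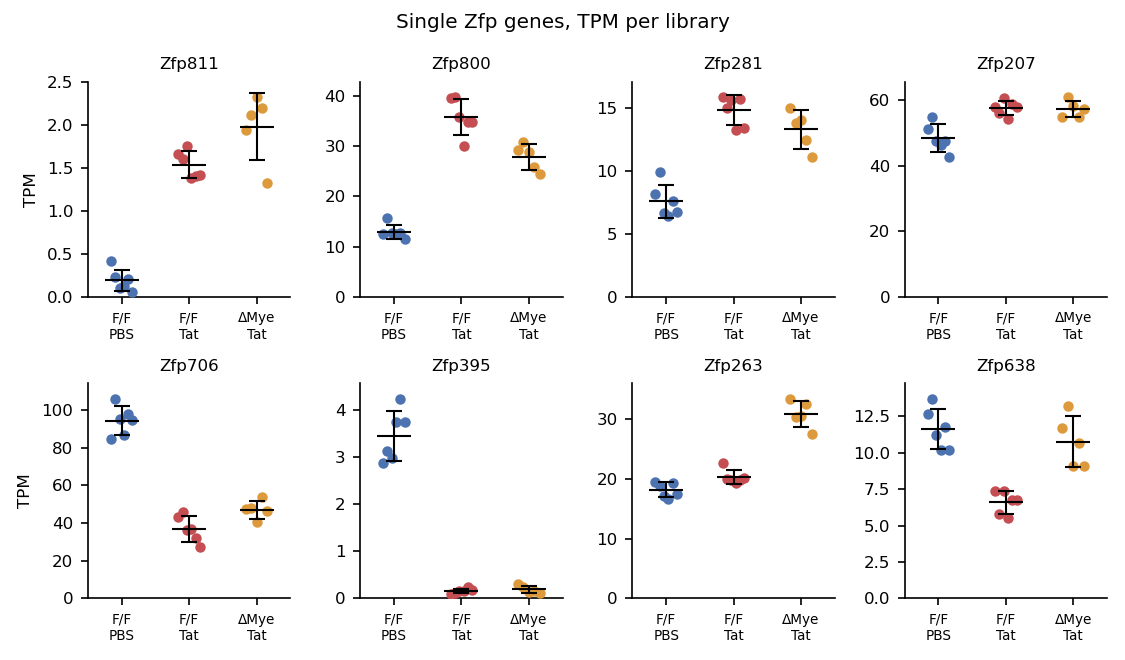
TPM of 8 numbered Zfp genes in each library by group, each panel with its own axis from 0, with points as libraries and the bar and whiskers as mean ± SD. Zfp811, Zfp800, Zfp281 and Zfp207 have higher means in the Tat groups than in F/F PBS, Zfp706 and Zfp395 lower means, and Zfp263 and Zfp638 separate ΔMye Tat from F/F Tat.

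Among the genes that fell, the largest difference was that of Zfp395, whose human counterpart binds the huntingtin gene promoter. It was at 2.87 to 4.24 TPM in F/F PBS (median 3.44), 0.0864 to 0.233 in F/F Tat (median 0.153) and 0.296, 0.233, 0.141, 0.160 and 0.110 in ΔMye Tat. Tat libraries of both genotypes were all under 0.3 TPM and all PBS libraries above 2.8. The difference was -3.82 ± 0.20 (adjusted p = 4.92e-13), and -1.94 with 1 TPM added. Zfp692, singled out after its values were seen, went from 3.29 to 5.22 TPM to 0.130 to 0.576 (-3.30 ± 0.24, adjusted p = 1.32e-10).

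Zfp362, a 6-finger gene with no KRAB pattern, was at 7.43 to 9.99 TPM in F/F PBS (median 7.97) and 0.774 to 1.35 in F/F Tat (median 0.970). Its log2 difference was -2.93 ± 0.13 (adjusted p = 4.43e-14), the largest fall among the genes that averaged 5 TPM or more in PBS. The most abundant gene, Zfp706, was at 84.7 to 106 TPM in F/F PBS (median 95.1), 27.4 to 45.7 in F/F Tat (median 36.5) and 47.3, 48.0, 40.4, 53.7 and 46.2 in ΔMye Tat. It fell by 1.37 ± 0.10 (adjusted p = 1.18e-10), without overlap.

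The other 5 genes that the naming rule put at the bottom, Zfp931, Zfp970, Zfp971, Zfp967 and Zfp966, all stand in a single array of 9 numbered Zfp genes at chr2:175372436-178078476 (GRCm38), all with a KRAB pattern. Of the 9, 8 were called lower, where 19.4% of all tested genes were, with a median difference of -2.01 (-1.41 after the scaling). The exception was Zfp972. The annotated starts of these genes lie in near-copies of the same promoter. From the RefSeq promoters (GRCm38.p6), a 100-base window around a CCAAT box, the binding motif of NF-Y, is shown for Zfp967 and for the genes whose window differs from it. Capitals mark the CCAAT box and every base that differs from Zfp967.
Zfp967: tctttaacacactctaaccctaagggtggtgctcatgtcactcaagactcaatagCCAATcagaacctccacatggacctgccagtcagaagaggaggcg
Zfp971: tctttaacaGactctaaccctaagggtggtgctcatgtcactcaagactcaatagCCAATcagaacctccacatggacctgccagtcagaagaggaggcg
Zfp931: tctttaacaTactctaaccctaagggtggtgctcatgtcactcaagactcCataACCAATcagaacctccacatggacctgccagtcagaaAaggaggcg
Zfp972: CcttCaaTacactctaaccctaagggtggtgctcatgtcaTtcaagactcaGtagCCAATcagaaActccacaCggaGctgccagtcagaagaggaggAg
The windows are at chr2:176520885-176520984 on the plus strand (Zfp967), chr2:178023151-178023250 plus (Zfp971), chr2:178078489-178078588 minus (Zfp931) and chr2:177925693-177925792 minus (Zfp972). Those of Zfp968, Zfp965, Zfp966, Zfp973 and Zfp970 matched Zfp967 at all 100 bases. Zfp971 differed at 1 base, Zfp931 at 4 and Zfp972, the gene that was not called, at 9. Any link between these bases and the Tat differences was not tested. The 9 promoters held 3 to 5 CpG each, against a median of 16 over the 263 promoters found for 218 of the 262 genes and 7 over all 32851 promoters.

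CCAAT, searched on both strands, was in all 9 promoters of 300 bases, in 47.5% of the promoters of numbered Zfp genes and in 37.4% of all promoters. The longer string CCAATCAGAACC, the bases from that box on in Zfp967 and so chosen from this array, was in 8 of the 9, in 3.42% of the numbered Zfp promoters and in 0.122% of all. These are matches of letters in short windows.

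Zfp967 was at 19.2 to 30.7 TPM in F/F PBS (median 27.6), 4.63 to 9.03 in F/F Tat (median 6.53) and 13.0, 11.3, 8.66, 9.35 and 10.1 in ΔMye Tat. Its Tat libraries all lay under its PBS libraries, and the difference was -2.01 ± 0.14 (adjusted p = 4.35e-11). Zfp971 was at 11.8 to 20.1 TPM in F/F PBS (median 14.5), 2.21 to 3.11 in F/F Tat (median 2.78) and 5.60, 6.35, 5.32, 4.31 and 5.41 in ΔMye Tat. Its 3 groups did not overlap, and the Tat difference was -2.38 ± 0.12 (adjusted p = 4.57e-13).

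Zfp970 went from 8.95 to 17.5 TPM in F/F PBS to 1.27 to 2.58 in F/F Tat (-2.64 ± 0.18, adjusted p = 5.29e-11). Zfp931 went from 5.86 to 9.74 TPM to 0.720 to 1.65 (-2.66 ± 0.27, adjusted p = 1.50e-08), and Zfp966 from 4.32 to 6.62 TPM to 0.769 to 1.47 (-1.99 ± 0.16, adjusted p = 5.00e-10). None of these ranges overlapped. Zfp965, Zfp973 and Zfp968 were also called lower, at -1.62, -2.00 and -2.10, although the ranges of Zfp968 overlapped and 1 of its F/F Tat libraries was listed at 0. Zfp972, whose annotated protein has a KRAB pattern and no finger, was at 1.33 to 3.36 TPM in F/F PBS and 0.968 to 2.58 in F/F Tat, a difference of -0.53 ± 0.23 (adjusted p = 0.038) that turned to 0.08 after the scaling. Without F/F PBS replicate 2, Zfp972 passed the adjusted p at -0.69 (adjusted p = 0.0054).

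These transcripts are hard to tell apart by reads. The median gene of the array shared 90.5% of its 31-base words with transcripts of other genes, and Zfp967 shared 100%, so the split of TPM within the array is uncertain and the 9 values are not independent. Zfp931 shared least, at 39.8%. Summed over the array, the libraries held 71.7 to 88.5 TPM in F/F PBS, 15.4 to 21.7 in F/F Tat and 27.3 to 35.1 in ΔMye Tat. The sums did not overlap between groups.

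The same stretch of chromosome 2 holds 16 other tested genes, nearly all predicted genes with Gm names. Of these, 11 were called lower, where 19.4% of all tested genes were, and 0 higher, with a median difference of -2.03. In all, 19 tested genes of chromosome 2 had CCAATCAGAACC in a promoter, 8 of them numbered Zfp genes, and 15 were called lower with a median of -2.08. The string was cut from this array, so this count is not independent of those above. Shared words were not counted for the Gm genes. Examples that are not numbered Zfp genes are Gm4631 (-2.57 ± 0.08) and 2210418O10Rik (-2.48 ± 0.10). None of 6 tested carriers on other chromosomes reached the fold of 3, whatever their p, and their differences ran from -1.03 for Selenoo to 0.47 for Pi4k2a with a median of -0.48. The only numbered Zfp gene among them, Zfp869 on chromosome 8, was at -0.31 ± 0.08 (0.32 after the scaling).

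**Figure D4:**
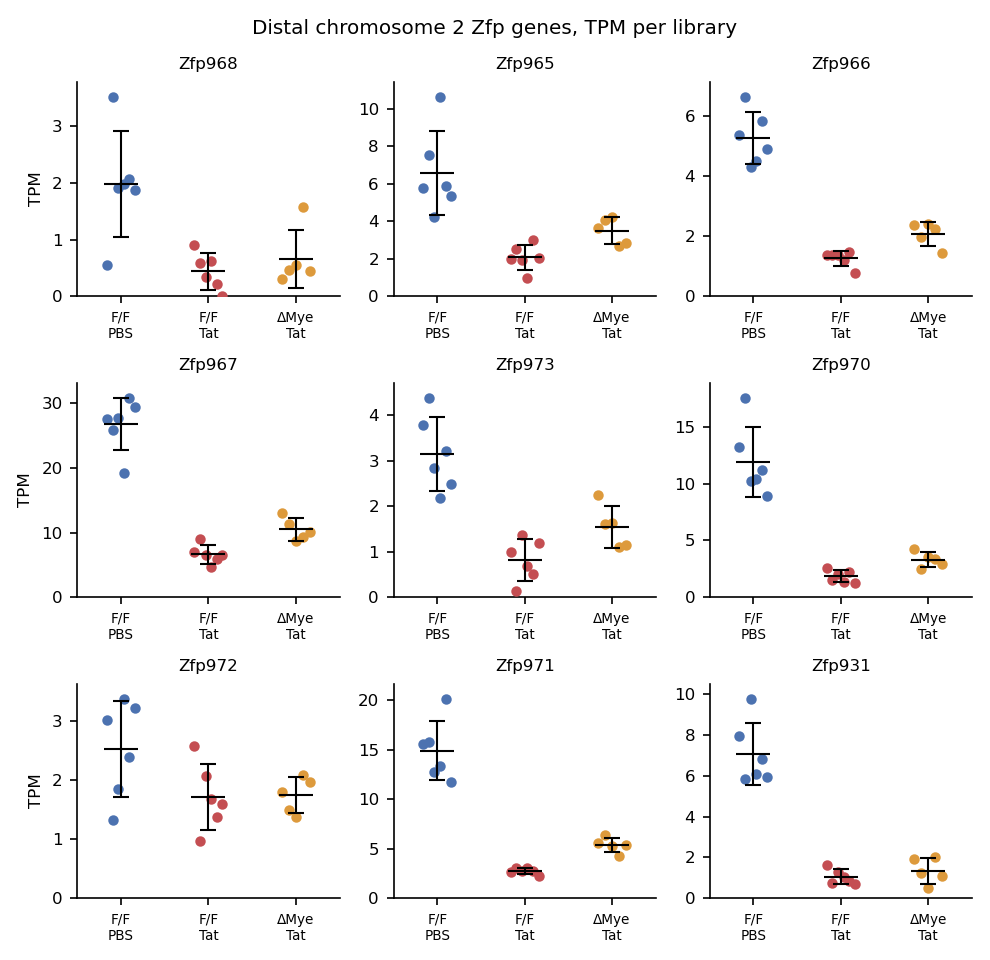
TPM of the 9 numbered Zfp genes of the distal chromosome 2 array in each library, in chromosome order, each panel with its own axis from 0, with points as libraries and the bar and whiskers as mean ± SD. In 8 panels the F/F Tat mean lies well under the F/F PBS mean, with differences from -2.66 to -1.62 on the log2 scale, and in the panel of Zfp972 the 3 groups overlap.

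The KRAB class had the lower median difference, -0.98 over 143 genes against -0.60 over 117 genes with no KRAB pattern, and 29 genes, 20.3%, were called lower against 11, 9.40%, where 19.4% of all tested genes were. The KRAB share was thus near that of all genes and the other share below it. Of the 29 KRAB genes called lower, 8 were those of the distal chromosome 2 array, whose values are not independent. The KRAB share thus leans on that array, and the share without it was not computed. After the scaling the medians were -0.37 and 0.03, so that of the genes with no KRAB pattern turned. The medians had the same order within both bands of mean level. Among genes with a mean under 5 TPM the medians were -1.03 for 117 KRAB genes and -0.72 for 55 others. At 5 TPM or more they were -0.62 for 26 KRAB genes and -0.43 for 62 others, and the median of these 88 genes together turned from -0.47 to 0.16 after the scaling. By level, 36 of 174 genes under 5 TPM were called lower and 5 of 88 at or above it. Weak genes often passed the level rule only through F/F PBS, and the mean includes the Tat libraries. These counts therefore cannot show that level goes with the direction of change. For the same reason the medians within bands cannot separate class from level. The difference between classes was not tested. By number of fingers the medians were -0.62 for 0 to 4, -0.91 for 5 to 9, -0.87 for 10 to 14 and -0.69 for 15 or more, with no steady order. That for 0 to 4 fingers turned to 0.0029 after the scaling.

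**Figure D5:**
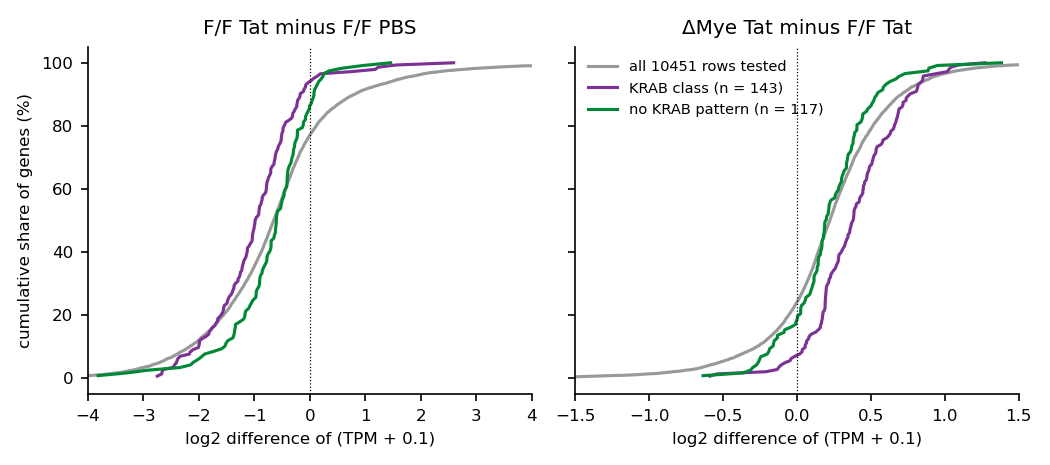
Cumulative shares of genes (%) by log2 difference of (TPM + 0.1), on the left for F/F Tat minus F/F PBS and on the right for ΔMye Tat minus F/F Tat, for all tested genes, the KRAB class and the class with no KRAB pattern. The KRAB line lies left of the other class at the median with Tat, -0.98 against -0.60, and right of it in ΔMye Tat, 0.38 against 0.20, and both classes lack the long right tail of all genes with Tat.

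Of the 262 genes, 131 lay in 15 arrays of at least 5 numbered Zfp genes with gaps of at most 1 Mb, and 62 of the 262 were on chromosome 7 and 36 on chromosome 17. Apart from the distal chromosome 2 array, array medians ran from -1.36 (6 genes around Zfp628) to -0.17 (5 genes around Zfp788, 0.45 after the scaling) on chromosome 7. The 21 genes around Zfp160 on chromosome 17 had a median of -0.78 with 1 called lower, and the 16 around Zfp712 on chromosome 13 a median of -0.54 (0.04 after the scaling) with 3 called lower. The 130 genes outside arrays had a median of -0.64 with 16 called lower. After distal chromosome 2, the highest share called lower in an array was 2 of 5.

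Of 6 genes listed for genome silencing, 5 fell at the adjusted p alone, or 83.3% against 67.6% of all tested genes, and 0 passed the fold of 3. After the scaling 2 of the 6 were lower and 0 higher. Zfp809, which recognises the primer binding site of murine leukaemia viruses and silences them, was at 5.99 to 7.05 TPM in F/F PBS (median 6.66), 1.39 to 3.21 in F/F Tat (median 2.88) and 4.15, 4.76, 3.29, 3.45 and 3.25 in ΔMye Tat. All its Tat libraries lay under the PBS libraries. The difference was -1.29 ± 0.16 (adjusted p = 2.57e-07). Zfp932, a repressor of endogenous retroviruses, fell by 1.42 ± 0.16 (adjusted p = 6.61e-08). Zfp638 (NP220), which with the HUSH complex silences unintegrated retroviral DNA, fell by 0.81 ± 0.10 (adjusted p = 5.29e-07).

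The imprinting regulator Zfp445 stood at -0.48 ± 0.12 (adjusted p = 0.0013) and the G9a/GLP partner Zfp644 at -0.59 ± 0.17 (adjusted p = 0.0026), and both turned to above 0 after the scaling, at 0.15 and 0.03. Zfp568, which silences a placental Igf2 promoter, did not pass, at -0.37 ± 0.15 (adjusted p = 0.026), and was at 0.24 after the scaling. Zfp57 and Zfp827, also on the list, were under the level rule.

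Of 9 genes with roles in RNA, ribosomes and the spindle, 5 fell and 1, Zfp207, rose. The 55.6% lower was below the 67.6% of all tested genes. After the scaling 4 were higher and 2 lower, and the median turned from -0.38 to 0.25. Zfp326, a DBIRD subunit that links transcription to splicing, fell most. It was at 7.13 to 10.3 TPM in F/F PBS (median 8.53), 1.39 to 3.43 in F/F Tat (median 2.35) and 5.21, 3.99, 3.85, 4.05 and 4.85 in ΔMye Tat, the 3 groups apart, with a Tat difference of -1.90 ± 0.16 (adjusted p = 1.35e-09). Zfp622, a 60S ribosome assembly factor, stood at -0.41 ± 0.05 (adjusted p = 4.43e-07), the splicing-associated Zfp830 at -0.62 ± 0.07 (adjusted p = 9.85e-08) and the RNA-binding Zfp106 at -0.38 ± 0.11 (adjusted p = 0.0041). After the scaling these were at 0.22, 0.01 and 0.25, so their direction rested on the scale. Zfp106 also failed the adjusted p without F/F PBS replicate 2 (adjusted p = 0.010). Zfp598, the ubiquitin ligase of collided ribosomes, at -0.12, Zfp593, another 60S factor, at 0.06, and Zfp346, which binds double-stranded RNA, at -0.25 did not pass, and after the scaling they were at 0.51, 0.69 and 0.36.

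Of 23 genes listed for transcription and signalling, 12 fell and 2, Zfp800 and Zfp281, rose, with a median of -0.33. The 52.2% lower was below the 67.6% of all tested genes. After the scaling the list turned, with 11 higher, 5 lower and a median of 0.30. Zfp704 fell by 1.53 ± 0.13 (adjusted p = 1.14e-09), Zfp746 (PARIS, a repressor of PGC-1α) by 1.19 ± 0.09 (adjusted p = 9.69e-11), Zfp64 by 1.17 ± 0.08 (adjusted p = 7.64e-11) and Zfp318, needed for IgD in B cells, by 1.15 ± 0.15 (adjusted p = 8.33e-07). Zfp217, a partner of CoREST, fell by 0.91 ± 0.13 (adjusted p = 1.56e-06). Zfp91, an E3 ligase of non-canonical NF-κB signalling, was at 26.2 to 31.3 TPM in F/F PBS and 19.4 to 23.3 in F/F Tat (-0.46 ± 0.06, adjusted p = 9.08e-07), and at 0.17 after the scaling. Zfp384 (-0.08), Zfp143 (0.09), Zfp335 (-0.06) and Zfp410, an activator of Chd4 (-0.33), did not pass, and after the scaling they were at 0.56, 0.71, 0.57 and 0.30.

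The partners through which KRAB proteins act moved unevenly. Of 32 listed, 30 were tested, 22 fell and 4 rose at the adjusted p alone, with a median of -0.56. These shares, 73.3% and 13.3%, were near the 67.6% and 17% of all tested genes. After the scaling 11 were lower and 10 higher, and the median turned to 0.07. Trim28, the KRAB corepressor, averaged 42.6 ± 2.58 TPM (SD, n = 6) before Tat, in F/F PBS, against 25.5 ± 1.07 (n = 6) in F/F Tat (-0.74 ± 0.05, adjusted p = 1.26e-10), and Setdb1 at 11.4 ± 0.637 and 5.54 ± 0.505 (-1.03 ± 0.08, adjusted p = 2.52e-10). The maintenance DNA methyltransferase Dnmt1 fell by 2.56 ± 0.08 and the heterochromatin protein gene Cbx3 by 2.63 ± 0.10. Daxx, the histone H3.3 chaperone, went the other way, from 66.1 ± 4.17 TPM to 449 ± 10.7 (2.77 ± 0.04, adjusted p = 2.15e-22). Other C2H2 families, Zbtb, Zscan, Zkscan and Klf, had 39 of 57 tested genes lower and 6 higher with a median of -0.67. The share lower, 68.4%, was near that of all tested genes, and after the scaling 17 were lower and 17 higher.

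This comparison asks what loss of myeloid IKKβ changes in Tat-treated macrophages. It shares the F/F Tat libraries with the comparison above, and the values of both are only set side by side. Differences were small: the differences of all 262 genes lay between -0.63 and 1.38 on the log2 scale, so none reached the fold of 3 at any p, where 0.44% of all genes were called higher and 0.316% lower (0.239% and 0.612% after the scaling). At the adjusted p alone 71 were higher and 2 lower, 27.1% and 0.763%, against 38.8% and 8.87% of all genes tested. Both shares were below the background. The groups did not overlap for 37 genes in the higher direction and 1 in the lower, 14.1% and 0.382%, against 28.6% and 8.01%. The median difference was 0.30, against 0.22 over all tested genes, and after the scaling 18 were higher and 14 lower, against 15.9% and 19.4%.

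The KRAB class had a median of 0.38 with 43 higher and 0 lower, and the genes with no KRAB pattern a median of 0.20 with 27 higher and 2 lower. The shares higher, 30.1% and 23.1%, were both below the 38.8% of all tested genes. After the scaling 9 KRAB genes were higher and 0 lower with a median of 0.17, and in the other class 9 were higher and 14 lower with a median that turned to -0.0024. The difference between classes was not tested.

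Zfp263, the clearest case, was at 19.4 to 22.7 TPM in F/F Tat (median 19.9) and 33.4, 30.4, 30.5, 32.5 and 27.6 in ΔMye Tat, with F/F PBS at 16.7 to 19.5. The ΔMye Tat libraries lay above all F/F libraries. The difference was 0.60 ± 0.06 (adjusted p = 7.61e-08), and its Tat difference did not pass (0.16 ± 0.06, adjusted p = 0.012), though it did so without F/F PBS replicate 1, F/F PBS replicate 5 or ΔMye Tat replicate 23 (adjusted p from 0.0074 to 0.0081).

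Zfp638 was at 5.54 to 7.40 TPM in F/F Tat (median 6.75) and 11.7, 13.2, 9.10, 10.7 and 9.11 in ΔMye Tat, back within its F/F PBS range of 10.2 to 13.7 in 3 of 5 libraries. It was higher by 0.69 ± 0.11 (adjusted p = 2.62e-05), without overlap. Zfp326 was higher by 0.95 ± 0.17 (adjusted p = 1.00e-04) and Zfp971 by 0.94 ± 0.13 (adjusted p = 4.87e-06), with the values given above. Zfp146 (0.55 ± 0.07, adjusted p = 3.21e-06), Zfp444 (0.54 ± 0.13, adjusted p = 0.0017) and Zfp64 (0.53 ± 0.09, adjusted p = 4.52e-05) also rose without overlap, and each of them had fallen with Tat. The largest difference, named after its value was seen, was that of Zfp692, at 0.130 to 0.576 TPM in F/F Tat and 1.23, 0.991, 0.772, 1.04 and 0.733 in ΔMye Tat (1.38, adjusted p = 1.35e-04).

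The genes that were lower were Zfp800 and Zfp821. Zfp800, which had risen with Tat, was lower by 0.36 ± 0.08 (adjusted p = 8.81e-04), with overlapping ranges and all 5 ΔMye Tat libraries still above every PBS library. Zfp821 was at 6.46 to 8.42 TPM in F/F Tat and 5.96, 5.44, 5.17, 5.89 and 5.42 in ΔMye Tat (-0.32 ± 0.09, adjusted p = 0.0044), without overlap. It failed the adjusted p without F/F Tat replicate 11 or 12 or ΔMye Tat replicate 20 or 21 (0.011 to 0.014). The other genes that had risen with Tat did not pass, such as Zfp811 (0.33 ± 0.24, adjusted p = 0.25) and Zfp281 (-0.16 ± 0.10, adjusted p = 0.20), or, for Zfp658, were higher again (0.40 ± 0.10, adjusted p = 0.0024).

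An array of 5 KRAB genes at chr4:146449023-147848366 had every gene higher in ΔMye Tat at the adjusted p, where 38.8% of all tested genes were, with a median of 0.49. The most abundant, Zfp991, was at 22.8 to 27.7 TPM in F/F Tat (median 25.5) and 40.2, 36.3, 36.7, 29.7 and 33.7 in ΔMye Tat, a difference of 0.46 ± 0.08 (adjusted p = 1.07e-04). Its F/F PBS range was 29.0 to 39.4, and its Tat difference of -0.45 turned to 0.19 after the scaling. Zfp984 was higher by 0.49 ± 0.06, Zfp992 by 0.37 ± 0.09, Zfp993 by 0.71 ± 0.19 and Zfp933 by 0.68 ± 0.18. Zfp993 failed the adjusted p without ΔMye Tat replicate 20 (0.011), and Zfp933 without F/F Tat replicate 12 or ΔMye Tat replicate 19 or 21 (0.010 to 0.014). After the scaling Zfp984 alone of the 5 passed, and Zfp991 shared 88.0% of its 31-base words with other genes.

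Of the 9 distal chromosome 2 genes, 5 were higher in ΔMye Tat at the adjusted p, or 55.6% against 38.8% of all tested genes, with a median of 0.68, and 2 after the scaling. Zfp965 was the weakest of these (0.77 ± 0.24, adjusted p = 0.0097) and failed without any of 11 of the 17 libraries (0.011 to 0.028). None returned to its F/F PBS mean: Zfp967 averaged 10.5 ± 1.71 TPM (n = 5) in ΔMye Tat and 26.7 ± 4.03 (n = 6) in F/F PBS. The T cell list was higher in ΔMye Tat than in F/F Tat, as given above, and its part in these differences was not tested.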

How the data were processed

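RNA was sequenced from 17 macrophage libraries. The authors quantified reads with Salmon against mouse transcripts of GRCm38, and deposited a merged table of TPM per gene symbol, which carries no read counts, so depth and counting error are unknown. Their own tests used counts and were not repeated. The table held no columns of other samples (0). Here genes at 1 TPM or more in at least 5 libraries (10451) were fitted on the scale log2(TPM + 0.1), which understates the change of low genes, by limma 3.58.1 (R 4.3.3), all 3 groups in 1 model with a mean-variance trend and 14 residual degrees of freedom, and p-values were adjusted by Benjamini-Hochberg. For Tat a call needed an adjusted p under 0.01 and a fold over 3, and for genotype the adjusted p alone. A simulation of the Tat comparison used 10451 genes, and at each fold 100 of them were changed. Of genes changed 2-fold, 91% passed the adjusted p but 2% passed both the adjusted p and the fold of 3. Of genes changed 4-fold, 98% passed the adjusted p and 98% passed both. In the data far more genes passed the adjusted p than were changed in the simulation, 67.6% lower and 17% higher.

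Gene positions, fingers and the KRAB pattern came from GENCODE M21 and promoters (250 bases before to 50 after the start) from RefSeq GRCm38.p6. Named genes were the 6 highest and 6 lowest per comparison among those past the adjusted p with separate groups, the higher of which averaged 5 TPM or more, the 8 most abundant, role lists, the 3 nearest each side of the level rule, and any call made for 5 genes or fewer. Others of the chromosome 2 and 4 arrays, Zfp382, Zfp558, Zfp692 and Zfp869 were added after their values were seen. The genes and lists were chosen with earlier results of these data known. Alternatives were 2 pseudocounts, 2 filters, median-ratio scaling, quantile normalization, robust moderation, a rank test, 2-group fits and each library left out. The marker lists of neutrophils and mast cells summed to 50.5 to 102 and 22.5 to 43.7 TPM per library. Labels give 3 days between thioglycollate and collection. Figures were drawn with matplotlib 3.10.9 under Python 3.11.15. One item of the mice's shared genetic background is not reported here.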

Additional observations from a re-analysis of the deposited data

Results flagged for a closer look

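In 213 groups of 5 or 6 libraries (69 named genes, and the members' summed level and count at 1 TPM, each in 3 groups), 12 held a library whose gap to its nearest neighbour was larger than Dixon's 95% limit, or 5.63%, and chance gives about 1 in 20. Of these, 4 were F/F Tat replicate 7, which stood above its group for Zfp263 (22.7 TPM, the others 19.4 to 20.1), Zfp106 (19.2, the others 15.4 to 16.7), Zfp217 (6.29, the others 4.55 to 4.94) and Zfp516 (4.70, the others 3.30 to 3.75). F/F Tat replicate 11 stood above its group for Zfp658 (6.76, the others 4.83 to 5.50) and below it for Zfp809 (1.39, the others 2.71 to 3.21), and F/F Tat replicate 12 below for Zfp966 (0.769, the others 1.22 to 1.47).

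In F/F PBS, replicate 5 stood above its group for Zfp362 (9.99 TPM, the others 7.43 to 8.38) and Zfp382 (6.04, the others 1.14 to 2.74), and replicate 2 for Zfp800 (15.6, the others 11.5 to 12.8) and Zfp993 (21.2, the others 11.8 to 13.5). In ΔMye Tat, replicate 22 stood above its group for Zfp968 (1.57, the others 0.310 to 0.544). Without F/F PBS replicate 5, Zfp382 was past the fold of 3 as well.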

How the results depend on the processing

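The 3 groups share no replicate numbers. No paired analysis was possible because the numbers run 1 to 6, 7 to 12 and 19 to 23 with none in common. The 262 genes and the lists were fixed throughout, and the cause of each change below was not tested unless the setting itself gives it.

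The count called higher with Tat (1) was 0 with a filter of 5 TPM (Zfp811 is then not tested) and with 0.5 or 1 TPM added, 6 after median-ratio scaling, 7 after quantile normalization, 2 with robust moderation and array weights, and 9 at the adjusted p alone. The count called lower (41) was 8 with the 5 TPM filter, 16 after median-ratio scaling, 14 and 7 with 0.5 and 1 TPM added, 6 after quantile normalization, 196 at the adjusted p alone and 24 among the 179 genes sharing at most 10% of their 31-base words, a setting chosen after seeing the data. The count higher in ΔMye Tat (71) was 40 with the 5 TPM filter, 18 after median-ratio scaling, 9 after quantile normalization, 46 among genes with few shared words and 0 with the fold of 3, and the count lower (2) was 14, 12 and 0 after median-ratio scaling, quantile normalization and the fold of 3. By an exact 2-sided Wilcoxon rank-sum test the last counts were 0 and 0, since 6 against 5 libraries could not pass the adjusted 0.01 in this table. Leaving out each library in turn gave 1 to 2 and 38 to 43 for Tat and 54 to 74 and 1 to 3 for ΔMye Tat. The single gene called higher became 2 without F/F PBS replicate 1 or 5 or F/F Tat replicate 9 or 10, and the 2 lower genes became 1 without F/F Tat replicate 11 or 12 or ΔMye Tat replicate 20 or 21. Shares of all tested genes are given above for the main fit, the adjusted p alone, the fold of 3 and median-ratio scaling. For the other settings they were not set beside these counts, which therefore do not compare numbered Zfp genes with other genes.

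The median of the numbered Zfp genes lay 0.13 under that of all tested genes with Tat, and above it by 0.011 with the 5 TPM filter, 0.0054 with 1 TPM added and 0.23 after quantile normalization. In ΔMye Tat it lay 0.079 above, and at -0.0093 after quantile normalization. Among named genes past the adjusted p with or without the change of setting, those whose Tat difference turned to above 0 (log2) after median-ratio scaling were Zfp991 0.19, Zfp384 0.56, Zfp91 0.17, Zfp655 0.0078, Zfp644 0.032, Zfp445 0.15, Zfp622 0.22, Zfp598 0.51, Zfp830 0.011, Zfp106 0.25, Zfp148 0.13, Zfp335 0.57, Zfp451 0.31, Zfp592 0.36, Zfp24 0.00997, Zfp292 0.58, Zfp407 0.61, Zfp869 0.32. After quantile normalization they were Zfp384 0.35, Zfp644 0.31, Zfp445 0.093, Zfp568 0.70, Zfp622 0.15, Zfp598 0.49, Zfp830 0.048, Zfp346 0.75, Zfp106 0.14, Zfp148 0.28, Zfp335 0.83, Zfp451 0.60, Zfp592 0.55, Zfp687 0.76, Zfp24 0.058, Zfp292 1.03, Zfp407 1.04, Zfp712 1.06, Zfp993 0.54, Zfp933 0.32, Zfp869 0.40. For ΔMye Tat only Zfp622 of such genes turned, to -0.032 and -0.022 under these settings in turn. None of such genes turned under the other settings. Named genes that passed in neither fit also changed sign, such as Zfp346, Zfp410, Zfp568 and Zfp972 with Tat after median-ratio scaling.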

Other observations

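Other zinc finger genes, grouped by symbol, also moved in both directions with Tat, at the adjusted p under 0.01 of limma. In the Zc3h family, whose CCCH fingers bind RNA, 7 of 14 tested genes were lower and 5 higher, against 67.6% and 17% of all tested genes, with a median log2 difference of -0.26 that turned to 0.37 after median-ratio scaling. In the Zdhhc family of palmitoyltransferases 13 of 18 were lower and 4 higher, with a median of -0.80 (-0.17 after the scaling). Of 8 tested Zscan genes 6 were lower, with a median of -0.93. In ΔMye Tat 9 of the Zdhhc genes and 4 of the Zc3h genes were higher than in F/F Tat and 0 and 1 lower, where 38.8% of all tested genes were higher and 8.87% lower.

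Among the Klf genes, Klf2 and Klf4, regulators of macrophage and endothelial activation, fell, and Klf6 rose. Klf2 averaged 28.6 ± 2.69 TPM in F/F PBS (SD, n = 6) and 6.21 ± 0.644 in F/F Tat (n = 6), a difference of -2.19 ± 0.08 (SE). Klf4 averaged 28.8 ± 2.04 and 6.96 ± 0.576 TPM in these groups (-2.04 ± 0.07), and Klf6 averaged 115 ± 8.44 and 207 ± 13.1 TPM (0.85 ± 0.05). Zbtb5 went from 4.37 ± 0.352 to 8.99 ± 0.534 TPM (1.03 ± 0.07) and was lower again in ΔMye Tat, at 6.34 ± 0.420 (n = 5, a difference from F/F Tat of -0.50 ± 0.07, adjusted p = 1.3e-05). These genes were picked out after their values were seen. Of the 30 tested KRAB partners, 11 were higher and 3 lower in ΔMye Tat than in F/F Tat, with a median of 0.20. The share higher, 36.7%, was near that of all tested genes, and after the scaling 7 were higher and 5 lower with a median that turned to -0.01.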
